A study of Homo sapiens with 24 samples.

Results

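The genes described here are 9 regulators of epithelial-to-mesenchymal transition (EMT), taken by name from the 64440 genes of GENCODE release 44 on hg19. They are the 7 transcription factor genes SNAI1, SNAI2, ZEB1, ZEB2, TWIST1, TWIST2 and PRRX1, and the 2 microRNA genes MIR200B and MIR200C. Histone marks were read from peaks in windows of 5 kb on each side of every annotated transcription start site (TSS) of a gene, and from H3K27ac peaks within 100 kb of those sites. The data were ChIP-seq peak lists for H3K4me3, H3K27ac and H3K27me3 from PANC-1, an established human cell line of pancreatic ductal carcinoma. The cells had received either a control siRNA (siControl) or an siRNA against PHF13 (siPHF13), a PHD finger protein that binds H3K4me3. The 3 groups were siControl without TGFβ, siControl with TGFb and siPHF13 with TGFb, where TGFb was given at 10 ng/ml for 48 h, and no siPHF13 group without TGFb was analysed here. Each group had 2 libraries per mark and hence 18 peak lists, and the 6 input samples of the series were not analysed here. All came from 1 cell line, and nothing in the labels says that the 2 libraries of a group came from separate cultures, so the spread between them may be technical.

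EMT transcription factors are proteins that bind short DNA elements and repress epithelial genes such as the one for E-cadherin. SNAI1, SNAI2, ZEB1 and ZEB2 are zinc finger repressors, TWIST1 and TWIST2 are basic helix-loop-helix proteins, and PRRX1 is a homeobox factor. The miR-200 microRNAs lower ZEB1 and ZEB2 protein through the 3′ ends of their mRNAs, and the ZEB proteins repress the miR-200 genes in turn, a mutual inhibition that is known to separate epithelial from mesenchymal cells. H3K4me3 is deposited at active and poised promoters, H3K27ac at active promoters and enhancers, and H3K27me3 by Polycomb complexes over repressed genes.

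The names written inside the lists go against the labels of the siControl+TGFb and siPHF13+TGFb groups. Lists labelled siPHF13+TGFb carry peak names with NCT, which the study uses for control siRNA with TGFβ, and lists labelled siControl+TGFb carry names with 3AT. By contrast, the number of peaks recorded for each group in the study follows the labels, apart from siPHF13+TGFb replicate 1. Groups were taken from the labels throughout. If the names were right, the TGFβ comparison would use the other pair of lists and every direction given below for PHF13 depletion would turn round. The values obtained after exchanging the groups are given with the counts below, and they were computed after seeing the data.

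H3K4me3 lists held 27869 to 39202 peaks, and H3K27me3 lists held 59573 to 165717. Few H3K27me3 peaks were strong, since only 1.87 to 2.38% of a list reached a −log10 q of 3. For H3K4me3 that share was 90.52 to 94.93%, and for H3K27ac it was 70.92 to 93.56%. Of the H3K27ac lists, 5 held 19413 to 36104 peaks and the list labelled siPHF13+TGFb replicate 1 held 6004, which covered 1.89 Mb. That replicate gave the shortest list for all 3 marks, so depletion results are also given without it. The study lists more peaks for this replicate than the deposited list holds, for each of the 3 marks, and values that rest on it are those of the deposited lists. It also states a stricter threshold for narrow peaks than the lowest q in these lists. Read depth is unknown from the lists. The promoters of the epithelial and ductal genes KRT8, KRT18, KRT19 and SOX9 carried H3K4me3 in 6 of 6 lists. CDKN2A carried no peak of any mark. The blood, vascular and acinar genes LYZ, CDH5, VWF, PRSS1 and CPA1 carried no H3K4me3, while PTPRC had H3K4me3 in 2 lists, CD3E in 3 and PTF1A in 1, at 370 bp or less. PHF13 itself carried H3K4me3 in 6 of 6 lists, but peak lists do not measure its RNA and the depletion could not be checked from them.

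The mature products of the miR-200 genes are shown first, because their seed, bases 2 to 8, sets the targets that they share and so defines the family. The seed is in capitals, and the sequences are from RefSeq (GRCh38.p14).
hsa-miR-200b-3p: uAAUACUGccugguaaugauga
hsa-miR-200c-3p: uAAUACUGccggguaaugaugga
hsa-miR-429: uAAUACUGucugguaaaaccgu
hsa-miR-200a-3p: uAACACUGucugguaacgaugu
hsa-miR-141-3p: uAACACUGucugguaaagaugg
The seed AAUACUG was found in 3 of the 2545 mature sequences of that table, those of miR-200b, miR-200c and miR-429, and AACACUG in 2, those of miR-200a and miR-141. The genes lie in a pair of clusters. MIR200B shares its window on chromosome 1 with MIR200A and MIR429, and MIR200C shares its window on chromosome 12 with MIR141, their host transcript MIR200CHG and the protein-coding genes PTPN6 and PHB2, so a peak there cannot be assigned to 1 of them.

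The regions that carried the results on the miR-200 and SNAI1 loci, and the promoter of MIR200CHG, are printed next, on the forward strand. For MIR200C the region is the stretch covered by H3K4me3 in both siControl+TGFb lists and in no other list, at chr12:7070855-7071027 on GRCh37, 2.0 to 1.8 kb before the hairpin and in no annotated gene.
MIR200C H3K4me3 region: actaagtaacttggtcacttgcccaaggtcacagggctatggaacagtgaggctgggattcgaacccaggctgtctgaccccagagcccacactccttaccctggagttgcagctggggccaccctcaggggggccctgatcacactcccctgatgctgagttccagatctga
For SNAI1 the region lies 47.1 to 47.4 kb beyond the start, at chr20:48646616-48646915 on GRCh37, between genes, in a stretch that carried H3K27ac in both siControl+TGFb lists and in neither siControl list. Capitals mark a match to TGANTCA, the AP-1 element, and CAGGTG, the E-box that ZEB and SNAI proteins bind, was searched as well, both on either strand.
SNAI1 distal H3K27ac region: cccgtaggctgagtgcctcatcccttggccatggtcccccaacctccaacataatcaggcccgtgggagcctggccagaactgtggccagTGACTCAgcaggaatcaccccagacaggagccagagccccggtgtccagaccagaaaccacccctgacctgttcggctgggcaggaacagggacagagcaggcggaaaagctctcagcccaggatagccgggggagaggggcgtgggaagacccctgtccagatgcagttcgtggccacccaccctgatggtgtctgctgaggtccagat
The last sequence is the promoter of MIR200CHG, the 300 bases around its start as RefSeq gives them (GRCh38.p14 chr12:6962995-6963294), with the E-box in capitals. It carried no peak of the 3 marks in any list. Peaks in the MIR200C window all lay at least 1323 bp before the hairpin, and this promoter lies nearer to the hairpin.
MIR200CHG promoter: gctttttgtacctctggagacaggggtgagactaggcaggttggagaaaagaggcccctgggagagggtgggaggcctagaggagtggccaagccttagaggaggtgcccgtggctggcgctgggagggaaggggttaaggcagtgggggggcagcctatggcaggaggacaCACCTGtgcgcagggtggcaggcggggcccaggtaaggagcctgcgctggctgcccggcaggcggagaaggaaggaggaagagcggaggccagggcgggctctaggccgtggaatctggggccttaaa
The E-box was present in 20.6% of 35116 RefSeq promoters of that length and in 14% of H3K4me3 peaks trimmed to 173 bp, but not in the MIR200C region. TGANTCA was present in 13.7% of H3K27ac peaks trimmed to 300 bp. A match is a run of letters and not evidence of binding.

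At the start of the comparison, the 9 genes fell into distinct chromatin classes. In both siControl lists, ZEB1 carried H3K4me3 and H3K27ac without H3K27me3, as did 38.1% of protein-coding genes. SNAI2, ZEB2 and PRRX1 carried H3K4me3 and H3K27me3 without H3K27ac, as did 12.2% of protein-coding genes. At ZEB2 the H3K4me3 lay 1.99 to 3.08 kb before and 3.13 to 4.59 kb beyond the 5′ end, and not over it. TWIST1 carried H3K4me3 alone, a class that held 2.04% of protein-coding genes, but only at 4.62 to 5.4 kb beyond its 5′ end. MIR200B carried H3K27me3 alone, as did 15.8% of microRNA genes, and MIR200C carried none of the marks, as did 50.4%. SNAI1 and TWIST2 could not be placed, since their siControl lists differed. In both siControl+TGFb lists, SNAI1 joined ZEB1 with H3K4me3 and H3K27ac, a class that then held 44.3% of protein-coding genes. MIR200C joined TWIST1 with H3K4me3 alone, a class that held 1.54% of microRNA genes. SNAI2 could no longer be placed, since its siControl+TGFb lists differed in H3K27ac. In bulk chromatin, marks that lie on the same stretch in the same cells and in different cells cannot be told apart.

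**Figure D1:**
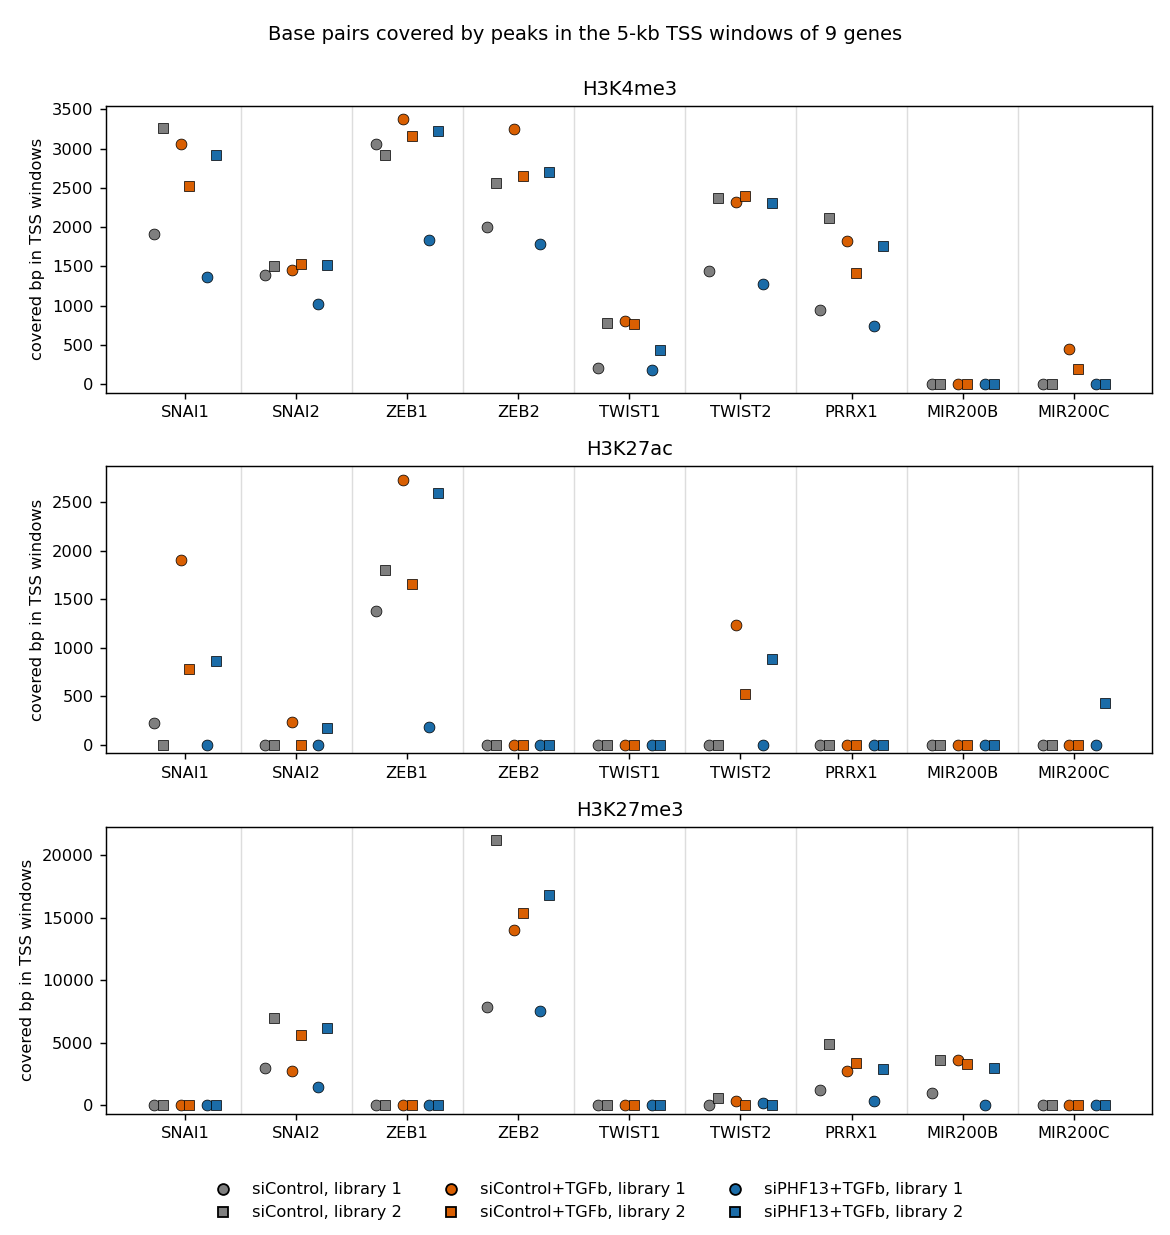
Base pairs covered by peaks (vertical axis, bp) in the TSS windows of the 9 genes, with a panel for each mark and a point for each list. H3K4me3 was found at 8 genes, H3K27ac at 5 and H3K27me3 at 5, and the replicate 1 list labelled siPHF13+TGFb lies lowest at most of them.

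SNAI1, the repressor that is usually induced first in EMT, lies at chr20:48599517-48605423 on the forward strand (ENSG00000124216) and has 1 annotated TSS. H3K4me3 covered 1912 and 3257 bp of its window in the siControl lists, 3059 and 2530 bp in the siControl+TGFb lists and 1371 and 2912 bp in the siPHF13+TGFb lists. The groups overlapped in both comparisons, and the spread within siControl was wider than the distance between the group means. In both siControl+TGFb lists the mark formed a single peak, which ran from 0.06 to 3.12 kb and from 0.05 to 2.58 kb beyond the start. A peak of similar width, 3065 bp, was present in siControl replicate 2, where it began at −0.68 kb. Those 3 peaks were wider than 97.25 to 99.53% of the peaks of their lists. In siPHF13+TGFb replicate 2 the widest of 3 peaks measured 2422 bp, wider than 96.25% of its list. The mark was broken into pieces of at most 1009 bp in siControl replicate 1 and of at most 724 bp in siPHF13+TGFb replicate 1.

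H3K27ac differed more at SNAI1. It covered 229 and 0 bp in the siControl lists, 1907 and 779 bp in the siControl+TGFb lists and 0 and 870 bp in the siPHF13+TGFb lists. Both siControl+TGFb lists lay above both siControl lists, and the siPHF13+TGFb lists lay on either side of the lower siControl+TGFb list. The difference between siControl+TGFb and siControl was 2.29 ± 1.19 on the log2(bp + 200) scale (SE, limma, n = 2 lists per group), with an adjusted p of 0.981 over all windows. Between 78.61 and 100% of the acetylated bases lay inside the H3K4me3 peaks of the same group and replicate. No H3K27me3 peak was found at SNAI1 in any of the 6 lists.

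SNAI2, which encodes the related repressor Slug, lies at chr8:49830157-49834299 on the reverse strand. Its H3K4me3 peak was the steadiest of the members with a peak at their 5′ end, with 1389 and 1503 bp in siControl cells, 1450 and 1535 bp in siControl+TGFb and 1022 and 1525 bp in siPHF13+TGFb. H3K27me3 spanned 2952 and 7007 bp, 2720 and 5666 bp, and 1478 and 6223 bp in the same order. Replicate 2 exceeded replicate 1 in every group, and the groups overlapped. The mark flanked the H3K4me3 peak in some lists and ran across it in others. A single H3K27me3 domain of 7007 bp, from −3.10 to 3.91 kb relative to the start, contained the whole H3K4me3 peak in siControl replicate 2, and a domain of 6223 bp did so in siPHF13+TGFb replicate 2. In siControl+TGFb replicate 1 and siPHF13+TGFb replicate 1 the 2 marks shared 0 bp. H3K27ac was limited to 232 bp in siControl+TGFb replicate 1 and 171 bp in siPHF13+TGFb replicate 2.

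ZEB1, the zinc finger repressor that the miR-200 family restrains, lies at chr10:31607424-31818742 on the forward strand, with 21 annotated TSSs and the antisense transcript ZEB1-AS1 at its start. H3K4me3 covered 3053 and 2924 bp in siControl cells, 3376 and 3165 bp in siControl+TGFb and 1833 and 3226 bp in siPHF13+TGFb. The mark lay in 2 to 4 pieces between −0.62 and 3.29 kb from the start. Both siControl+TGFb lists exceeded both siControl lists, by 0.12 ± 0.27 on the log2 scale (SE, limma, adjusted p = 0.911). That difference was close to the median of all windows, 0.13, and it turned to −0.12 when each list was scaled by its total covered length. The median of the windows tested by limma turned as well, to −0.10. Of the siPHF13+TGFb lists, replicate 1 lay below all others and replicate 2 lay between the siControl+TGFb lists.

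ZEB1 had the most H3K27ac of the 9 genes. The mark covered 1378 and 1807 bp in siControl cells, 2736 and 1659 bp in siControl+TGFb and 183 and 2602 bp in siPHF13+TGFb. The siControl and siControl+TGFb groups overlapped, and replicate 2 of siPHF13+TGFb was among the highest while replicate 1 was the lowest. In siControl+TGFb replicate 1 a single peak of 2434 bp joined the pieces seen in the other group, from −0.67 to 1.76 kb, and a peak of 2262 bp did so in siPHF13+TGFb replicate 2. A small peak further inside the gene, 65.69 to 65.99 kb beyond the 5′ end, was present in siControl+TGFb replicate 1, and a similar peak was present in siPHF13+TGFb replicate 2. No H3K27me3 peak was found at ZEB1.

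ZEB2, the paralogue of ZEB1, lies at chr2:145121931-145278624 on the reverse strand, and its 46 TSSs make up 5 windows of 81547 bp together. Those windows are shared with ZEB2-AS1, LINC01412, LINC02993 and 2 pseudogenes. H3K4me3 covered 2000 and 2556 bp in siControl cells, 3251 and 2654 bp in siControl+TGFb and 1789 and 2706 bp in siPHF13+TGFb. The siControl+TGFb lists lay above the siControl lists, by 0.35 ± 0.24 (SE, limma, log2 scale, adjusted p = 0.882), and overlapped the siPHF13+TGFb lists. The H3K4me3 peaks lay 1.74 to 3.08 kb before or 3.07 to 5.05 kb beyond the 5′ end, and none lay over it. The other mark at ZEB2 was H3K27me3, the mark of Polycomb complexes. H3K27me3 spanned 7896 and 21198 bp, 14025 and 15367 bp, and 7578 and 16824 bp in the same order, and its strongest peak outranked 91.55 to 98.3% of the peaks of its list. The widest domain measured between 2498 and 8376 bp. H3K4me3 lay in it or beside it, and the shared part was 0 to 70.1% of the H3K4me3 bases. H3K27ac was found in no list.

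TWIST1 lies at chr7:19060614-19157259 on the reverse strand and shares its windows with ENSG00000232821 and ENSG00000236536. It carried H3K4me3 over 214 and 777 bp in siControl cells, 805 and 767 bp in siControl+TGFb and 187 and 439 bp in siPHF13+TGFb. The siPHF13+TGFb lists lay below the siControl+TGFb lists, with a difference of −0.99 ± 0.49 on the log2 scale (SE, limma, adjusted p = 0.441). Without siPHF13+TGFb replicate 1 the difference was −0.63. The signal was not at the start of the gene. All 6 peaks lay between 4.61 and 5.47 kb beyond the 5′ end, at the edge of that window, and TWIST1 carried neither H3K27ac nor H3K27me3 in any list.

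TWIST2, at chr2:239756673-239832230 on the forward strand, had more H3K4me3 at its 5′ end than TWIST1. The mark covered 1445 and 2366 bp in siControl cells, 2320 and 2399 bp in siControl+TGFb and 1283 and 2307 bp in siPHF13+TGFb. The siPHF13+TGFb lists lay below the siControl+TGFb lists, the higher of them narrowly, and the difference was −0.41 ± 0.34 on the log2 scale (SE, limma, adjusted p = 0.468). Without siPHF13+TGFb replicate 1 it was −0.03, and after scaling by total covered length it was −0.04. H3K27ac was absent from both siControl lists at TWIST2, covered 1236 and 522 bp in the siControl+TGFb lists, and covered 0 and 890 bp in the siPHF13+TGFb lists. The siControl+TGFb lists stood above the siControl lists and overlapped the siPHF13+TGFb lists. On the log2(bp + 200) scale the first difference was 2.35 ± 1.19 (SE, limma, adjusted p = 0.981), a value set partly by the 200 bp added to the zeros, since with 50 bp added it was 4.10. Where acetylated, 91.19 to 100% of the bases lay inside H3K4me3. H3K27me3 pieces of 197 to 578 bp were found in 3 of 6 lists.

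PRRX1, at chr1:170631869-170708562 on the forward strand with 8 TSSs, resembled SNAI2 and ZEB2. H3K4me3 covered 951 and 2122 bp in siControl cells, 1820 and 1419 bp in siControl+TGFb and 739 and 1757 bp in siPHF13+TGFb. H3K27me3 spanned 1259 and 4947 bp, 2784 and 3385 bp, and 352 and 2892 bp in the same order. The groups overlapped for both marks. In 4 of the 6 pairs of lists, 46.96 to 84.83% of the H3K4me3 bases also lay in H3K27me3 peaks, and in the replicate 1 lists of siControl and siPHF13+TGFb at most 5 bp did.

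**Figure D2:**
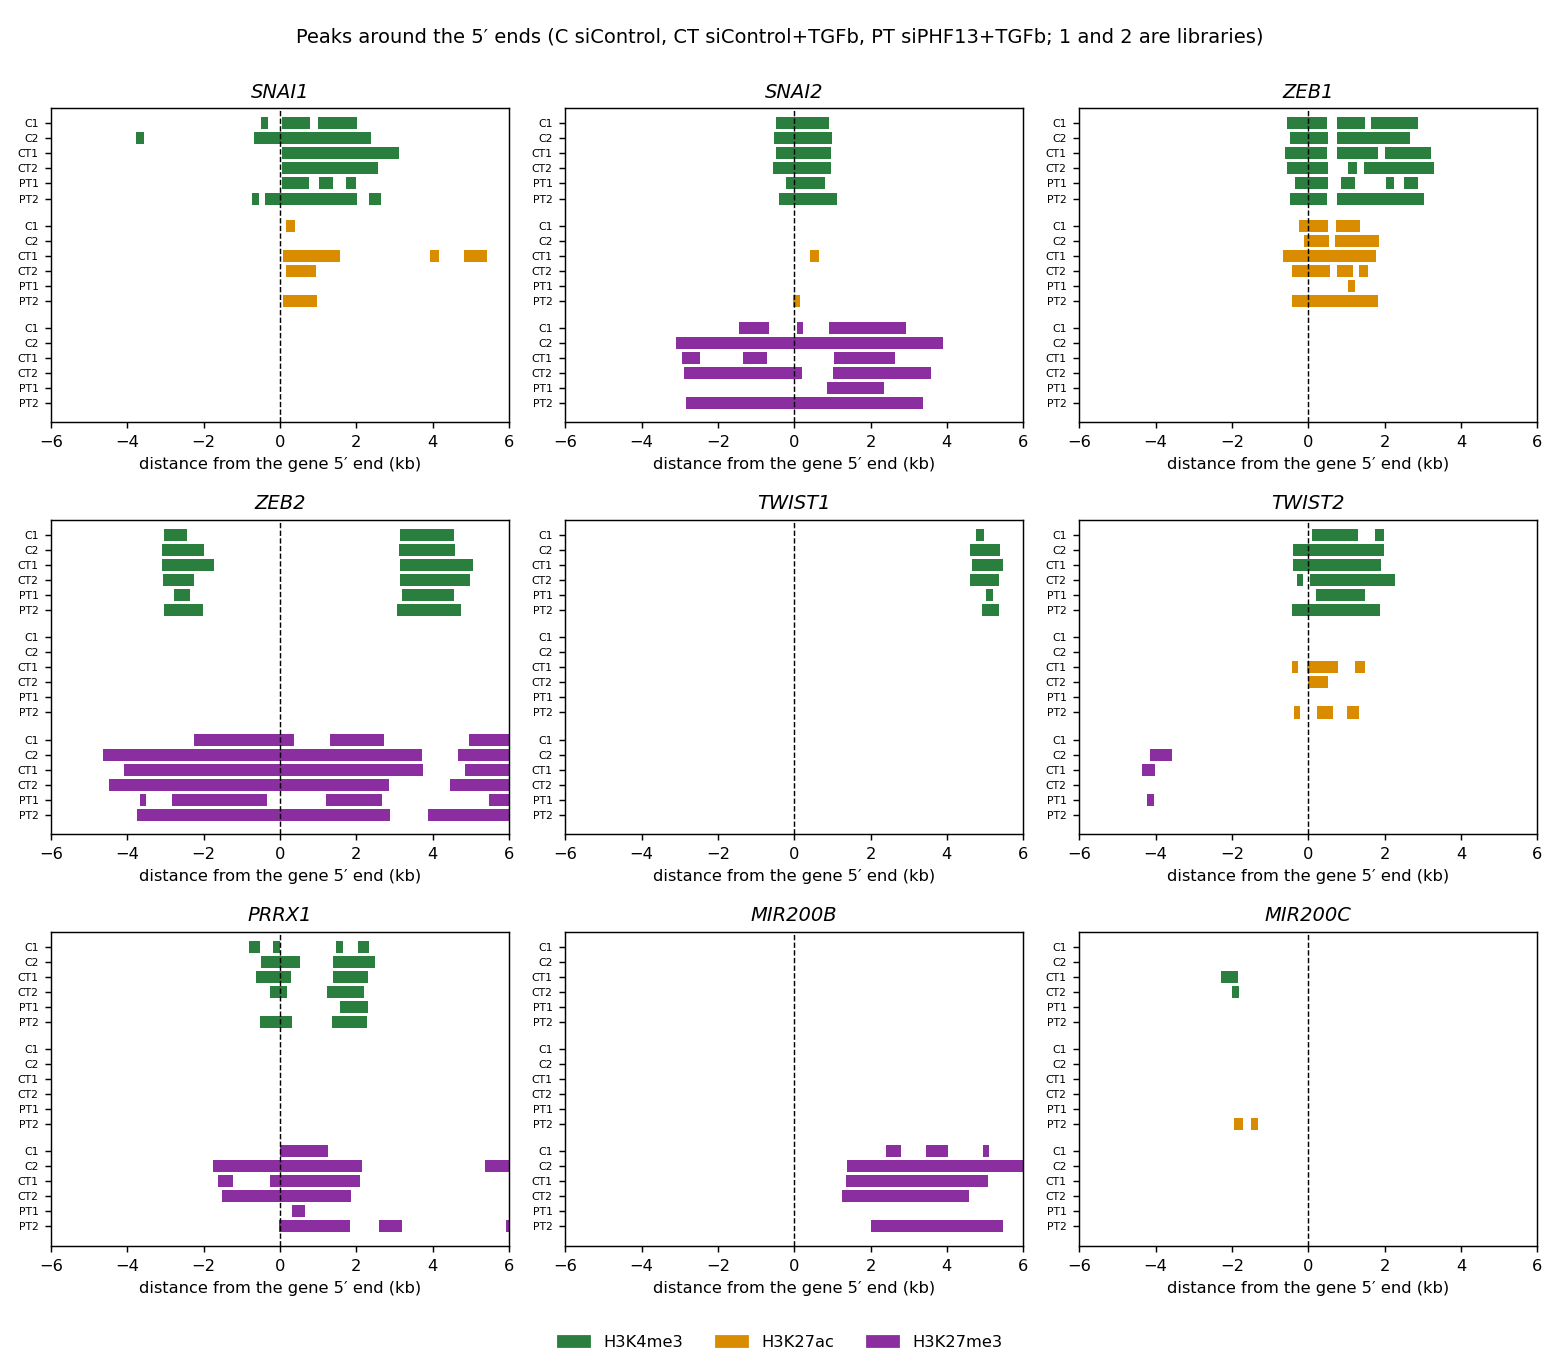
Peaks of the 3 marks within 6 kb of the 5′ end of each gene (horizontal axis, kb from the 5′ end, downstream to the right), with a row for each list (C for siControl, CT for siControl+TGFb, PT for siPHF13+TGFb). Bars are the peaks as deposited. H3K27me3 lies across or near H3K4me3 at SNAI2, ZEB2 and PRRX1 but is absent at SNAI1, ZEB1, TWIST1 and MIR200C.

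The miR-200 genes carried little of the active marks. For microRNAs the window is centred on the hairpin, the only start that GENCODE gives for the microRNA gene itself. The host transcript MIR200CHG is annotated as a separate gene, with a start inside the MIR200C window. MIR200B, at chr1:1102484-1102578 on the forward strand, had no H3K4me3 and no H3K27ac in any list. H3K27me3 extended over 1029 and 3625 bp in siControl cells, 3649 and 3334 bp in siControl+TGFb and 0 and 2999 bp in siPHF13+TGFb. The siPHF13+TGFb lists lay below the siControl+TGFb lists, with a difference of −2.21 ± 1.42 on the log2 scale (SE, limma, adjusted p = 0.922). The size of that difference came mostly from replicate 1, without which it was −0.21. The domain lay downstream of the hairpin, between 1.24 and 7.33 kb.

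MIR200C lies at chr12:7072862-7072929 on the forward strand. H3K4me3 was absent from both siControl lists, covered 453 and 200 bp in the siControl+TGFb lists and was absent from both siPHF13+TGFb lists. The siControl+TGFb lists were thus the only ones with the mark, in the region printed above. Both differences were 1.35 ± 0.25 in size on the log2(bp + 200) scale (SE, limma), with an adjusted p of 0.683 for TGFβ and 0.441 for depletion. They were 2.83 in size with 50 bp added. The peaks were weak, above only 12.67 and 8.25% of the peaks of their lists, and none was left when the H3K4me3 lists were cut to equal length. H3K27ac covered 428 bp in siPHF13+TGFb replicate 2 alone, in peaks 1939 to 1702 bp and 1512 to 1323 bp before the hairpin, and ranked above 19.19% of its list. No H3K27me3 peak was found at MIR200C.

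To put the genes on 1 scale, peaks were measured in the same length of 10 kb around each 5′ end. For H3K4me3 the mean over 6 lists was 2930 ± 559 bp at ZEB1, 2507 ± 732 bp at SNAI1 and 2484 ± 512 bp at ZEB2 (SD, lists of all groups). It was 2020 ± 512 bp at TWIST2, 1468 ± 536 bp at PRRX1 and 1404 ± 195 bp at SNAI2. TWIST1 followed with 233 ± 166 bp, MIR200C with 109 ± 187 bp and MIR200B with 0 bp. The step from SNAI2 to TWIST1 exceeded the SDs on either side, the step from TWIST2 to PRRX1 was about the size of the SDs, and the other neighbours in this order lay closer than the larger SD of the pair. For H3K27me3 the order was ZEB2 with 6758 ± 2073 bp, SNAI2 with 4341 ± 2243 bp, MIR200B with 2439 ± 1544 bp, PRRX1 with 2365 ± 1337 bp and TWIST2 with 187 ± 238 bp. H3K27ac was led by ZEB1 with 1621 ± 804 bp, ahead of SNAI1 with 631 ± 731 bp and TWIST2 with 441 ± 534 bp.

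The first comparison asked how the marks differed when control cells were given TGFβ. H3K4me3 was higher in both siControl+TGFb lists at 3 of the 8 members with a peak, ZEB1, ZEB2 and MIR200C, and lower at 0, beside 44.2% of all windows with a peak higher and 2.11% lower. H3K27ac was higher without overlap at 2 of 4, SNAI1 and TWIST2, and lower at 0, beside 51.4% higher and 0.0871% lower. H3K27me3 separated the groups at 0 of 5, beside 4.28% of windows higher and 7.01% lower. The H3K4me3 and H3K27ac counts were thus no larger a share than that of all windows. With 2 lists against 2, the exact permutation test (two-sided) cannot give less than p = 0.333, which each of these members reached. Limma across all windows called 0 members at an adjusted p of 0.05, while it called 0.146% of windows higher for H3K4me3 and 0% for the other marks. MIR200C for H3K4me3 and TWIST2 for H3K27ac were below 0.05 without adjustment, as were 3.33% and 0.795% of windows in the same direction. The median difference of the members was 0.23 for H3K4me3, beside 0.13 for all windows, and 1.43 for H3K27ac over 4 members, beside 0.54.

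The second comparison asked how PHF13 depletion altered the marks under TGFβ, and it shares the siControl+TGFb lists with the first. A list that was high by chance in that group would raise the first difference and lower the second. H3K4me3 was lower in both siPHF13+TGFb lists at 3 of 8 members, TWIST1, TWIST2 and MIR200C, and higher at 0, beside 57.7% of windows lower and 0.404% higher. H3K27ac separated the groups at 0 of 5, beside 10.1% of windows lower and 0.0514% higher. H3K27me3 was lower at 1 of 5, MIR200B, beside 26.2% lower and 1.11% higher. Limma called 0 members after adjustment, beside 0.202% of windows lower for H3K4me3 and 0% for the other marks. MIR200C for H3K4me3 was below 0.05 without adjustment, as were 8.59% of windows. Medians were −0.41 for H3K4me3 beside −0.23 for all windows, −1.13 for H3K27ac beside −1.02 and −0.37 for H3K27me3 beside −0.81. Without siPHF13+TGFb replicate 1 they were −0.02 beside −0.09, 0.26 beside 0.14 and −0.08 beside 0.00, so that for H3K27ac the sign turned and for H3K27me3 the shift of all windows was lost. Without that list, lower H3K4me3 was again seen at 3 of 8 members, beside 59.1% of windows. H3K27ac was then higher at 1 of 5 (MIR200C), beside 30.6%, and H3K27me3 was higher at 2 of 5 (SNAI2 and ZEB2) and lower at 1, beside 32.7% and 27.1%. With the siControl+TGFb and siPHF13+TGFb groups exchanged as the names inside the lists could be read, the TGFβ comparison separated the groups at 0 members for each mark. In that reading 2.01% of windows were higher and 18.4% lower for H3K4me3, 0.135% and 0.248% for H3K27ac, and 0.302% and 11.6% for H3K27me3. The H3K27ac differences at SNAI1 and TWIST2 were then 0.66 and 1.22, with overlap.

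**Figure D3:**
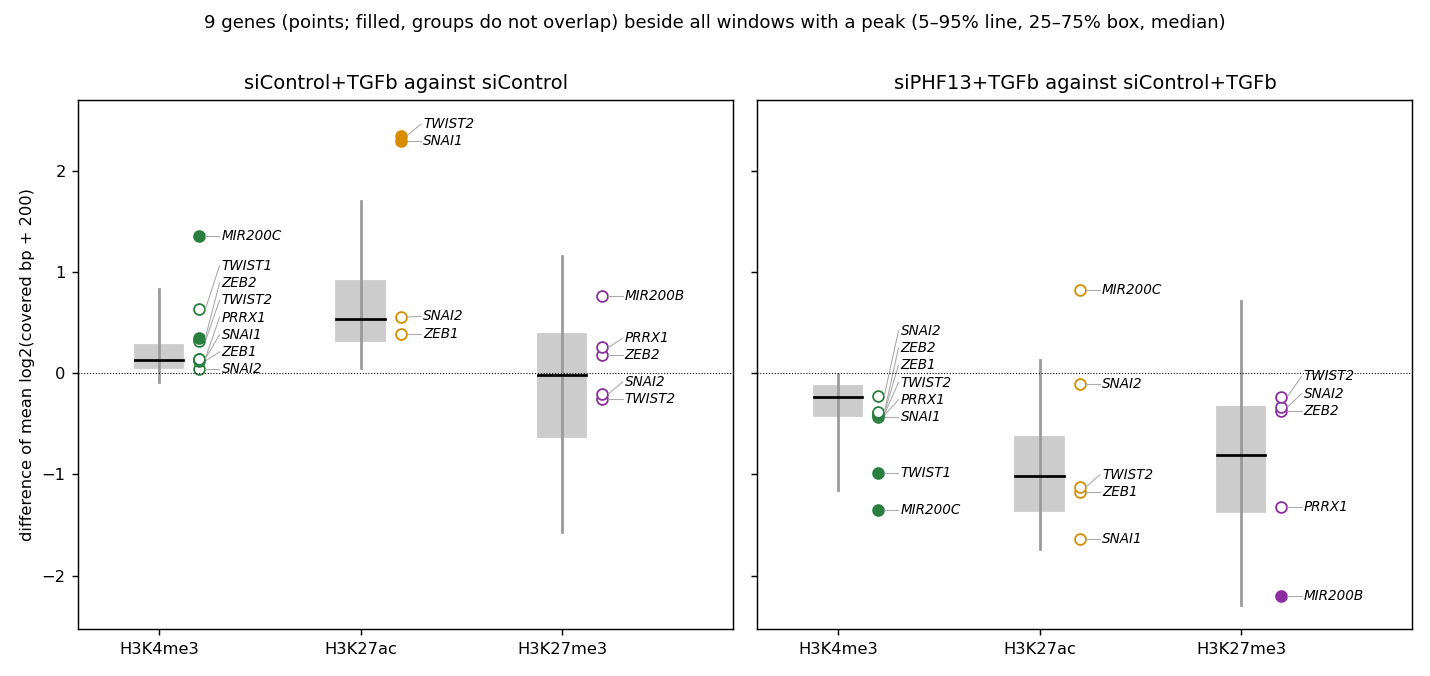
Difference between groups in log2(covered bp + 200) in the TSS windows of each gene for TGFβ and for PHF13 depletion, by mark, with the median of all windows for reference. The largest differences are those of H3K27ac at SNAI1 and TWIST2 with TGFβ, 2.29 and 2.35, and of H3K27me3 at MIR200B with depletion, −2.21. With the groups exchanged the first 2 were 0.66 and 1.22, and without siPHF13+TGFb replicate 1 the last was −0.21.

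Ranks were read beside the covered bases, with the limit that a longer list holds more weak peaks, which raises the percentile of a given peak. A percentile is the share of peaks in the same list with a lower −log10 q than the strongest peak at the gene. It sets the strongest of a gene's peaks against all peaks of the list, and the strongest peaks at other genes were not ranked. Genes with larger windows, such as ZEB2 with 81547 bp, have more peaks to take the strongest from. For H3K4me3 the members had a median percentile of 49.19 over 44 values, from 8.25 to 93.31. ZEB2 held 61.34 to 93.31 and was first in 4 of 6 lists, SNAI1 held 45.25 to 64.37, and TWIST1 held 8.67 to 52.79. For H3K27ac the median was 40.56 over 16 values, and ZEB1 was the highest member in 6 of 6 lists and the only one with a peak in siPHF13+TGFb replicate 1. Its percentiles were 74.82 and 73.3 in siControl, 86.69 and 86.52 in siControl+TGFb and 22.83 and 78.2 in siPHF13+TGFb. Thus ZEB1 stood higher in both siControl+TGFb lists than in both siControl lists by rank, although its covered bases overlapped, and the siControl+TGFb lists were also the longer ones. For H3K27me3 the median percentile was 89.1 over 26 values. Only 1.87 to 2.38% of the peaks of an H3K27me3 list reached a −log10 q of 3, so a high percentile there can still be a weak peak. ZEB2 held 91.55 to 98.3, PRRX1 28.66 to 95.77, SNAI2 57.12 to 95.28 and MIR200B 63.68 to 93.7.

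**Figure D4:**
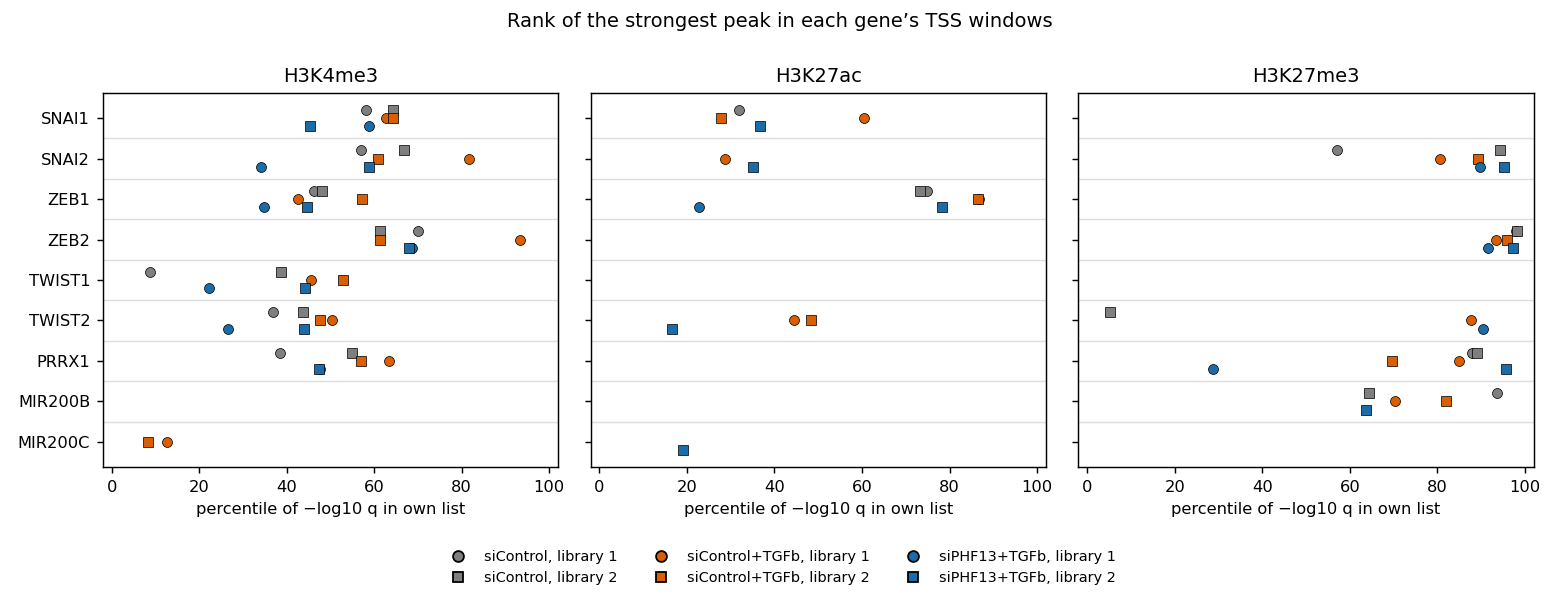
Percentile of the strongest peak at each gene among the peaks of its own list (axis from 0 to 100, by −log10 q), with a point for each list and a panel for each mark. H3K27me3 points have a median of 89.1, H3K4me3 points of 49.19 and H3K27ac points of 40.56. Only 1.87 to 2.38% of the peaks of an H3K27me3 list reached a −log10 q of 3, so its high percentiles can be weak peaks.

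Beyond the TSS windows, 53 H3K27ac regions lay within 100 kb of the members, where a region is the union of overlapping peaks from all lists. MIR200B had 18 and MIR200C 15, in gene-rich surroundings, SNAI1 had 12, TWIST2 had 4, ZEB1 had 2, ZEB2 and PRRX1 had 1 each, and SNAI2 and TWIST1 had 0. Peaks were found at 21 and 23 of the 53 in siControl, 48 and 30 in siControl+TGFb and 7 and 38 in siPHF13+TGFb. With TGFβ, 5 of the 49 regions present in those groups were gained, that is, present in both siControl+TGFb lists and in neither siControl list, and 0 were lost, beside 8.38% gained and 0.128% lost among all H3K27ac regions. With depletion, 1 of 53 was lost and 0 gained, beside 2.14% and 0.0128%. Only 15 of the 53 were over 5 kb from every annotated TSS, of which 1 of 13 was gained with TGFβ, beside 11.4% of such regions gained and 0.242% lost in the genome. With depletion 0 of the 15 changed in this sense, beside 2.96% lost and 0.0131% gained.

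At SNAI1, distal acetylation lay mostly downstream of the gene in the siControl+TGFb lists. Just beyond the end of its window, from 5.7 to 7.7 kb past the start, a region reaching over the end of the gene carried 153 and 544 bp in siControl cells, 2029 and 1050 bp in siControl+TGFb and 0 and 1342 bp in siPHF13+TGFb. The siControl+TGFb lists were above the siControl lists and did not separate from siPHF13+TGFb. A second region, 36.5 to 38.2 kb past the start between genes, carried 0 and 472 bp, 1688 and 735 bp, and 0 and 1466 bp in the same order. The third, 46.5 to 47.8 kb past the start, was the gained region that is far from every TSS. It carried 0 and 0 bp in siControl cells, 1308 and 530 bp in siControl+TGFb and 235 and 994 bp in siPHF13+TGFb, it overlapped H3K4me3 peaks in 6 of 6 lists, and its nearest annotated start, that of the RNA gene TRERNA1, was 10704 bp away. It is the region whose sequence is printed above. In all, distal H3K27ac at SNAI1 summed to 2244 and 3011 bp, 9544 and 4052 bp, and 235 and 7890 bp, a difference of 1.20 on the log2 scale with TGFβ.

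Inside TWIST2, a region 15.8 kb past the 5′ end carried 628 and 688 bp in siControl cells, 1302 and 1177 bp in siControl+TGFb and 0 and 1196 bp in siPHF13+TGFb. The siControl+TGFb lists were the highest pair against siControl, and siPHF13+TGFb fell on either side. PRRX1 carried H3K27ac inside the gene, 44.7 kb past the 5′ end, in 6 of 6 lists, with 521 and 1357 bp, 1478 and 1472 bp, and 368 and 1939 bp. The gene's own TSS windows held no H3K27ac, so this was the acetylation nearest to it. For ZEB1 the larger distal region lay 76.0 kb before the 5′ end, with 461 bp in siControl+TGFb replicate 1 and 1402 bp in siPHF13+TGFb replicate 2 only. The single region near ZEB2 was the promoter of the neighbouring gene GTDC1.

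At the miR-200 clusters most distal regions lay within 5 kb of an annotated TSS of a neighbour. Farther from every TSS were 2 of the 18 at MIR200B and 0 of the 15 at MIR200C. The nearest region to MIR200B, 9.6 kb before the hairpin, carried 532 and 1041 bp in siControl cells, 1125 and 929 bp in siControl+TGFb and 0 and 1137 bp in siPHF13+TGFb, with H3K4me3 in 6 of 6 lists. Its groups overlapped. The region with the most H3K27ac on average lay 63.6 kb beyond the hairpin at B3GALT6 and SDF4, with 1179 and 1378 bp, 1908 and 1333 bp, and 152 and 1605 bp, and it overlapped between groups as well. The gained regions near MIR200B lay 97.9 and 52.0 kb before and 97.9 kb beyond the hairpin, near RNF223, C1orf159 and UBE2J2, and the first of them was also the region lost with depletion, with 397 and 242 bp in siControl+TGFb and none elsewhere. The second carried 319 and 224 bp in siControl+TGFb and 0 and 275 bp in siPHF13+TGFb. The third carried 858 and 704 bp in siControl+TGFb and 168 and 875 bp in siPHF13+TGFb. None of the 3 had a peak in siControl. MIR200C had 1 gained region, 26.2 kb before the hairpin near ATN1, with 398 and 160 bp in siControl+TGFb and 0 and 477 bp in siPHF13+TGFb. Its most covered region lay 6.1 kb beyond the hairpin at EMG1 and PHB2, with 1490 and 1580 bp, 2022 and 1421 bp, and 241 and 1954 bp, and its groups overlapped. Summed over 100 kb, distal H3K27ac was higher without overlap in siControl+TGFb than in siControl at 6 of the 7 members with any, beside 57.4% of genes higher and 0.162% lower, and ZEB1 was the exception. For depletion, all of these sums overlapped, beside 4.54% of genes lower and 0.029% higher.

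**Figure D5:**
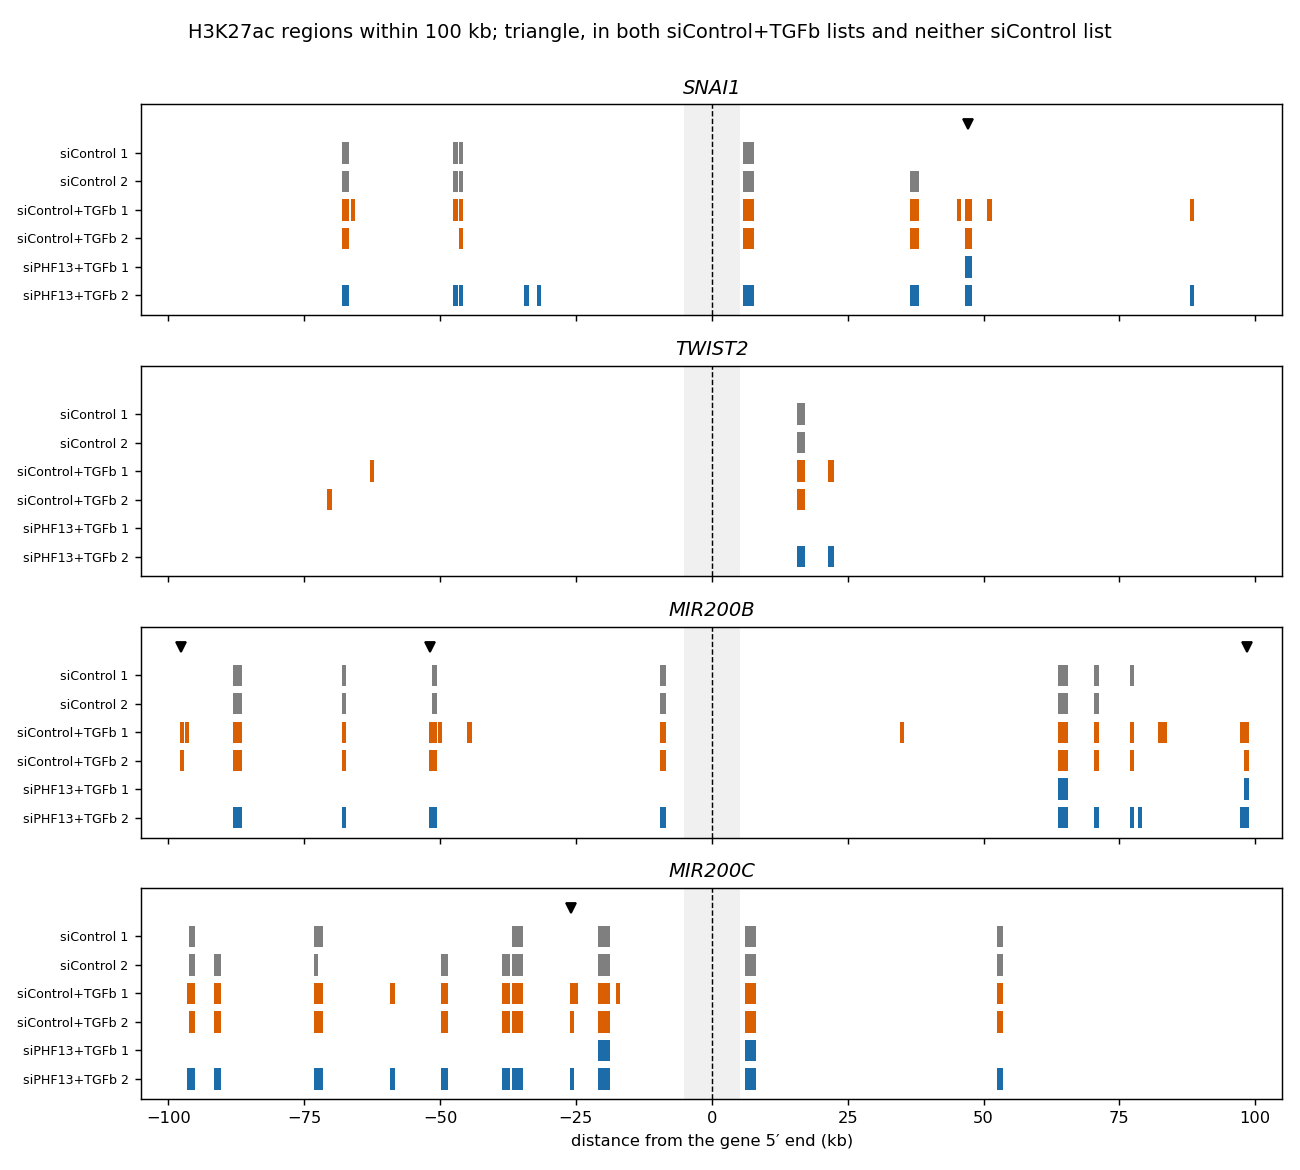
H3K27ac regions within 100 kb of SNAI1, TWIST2, MIR200B and MIR200C (horizontal axis, kb from the 5′ end), with a row for each list. A bar is drawn over the whole merged region when the list holds a peak in it, and bars under 0.8 kb are drawn 0.8 kb wide. The grey band is the 5 kb window and triangles mark regions gained with TGFb. SNAI1 shows acetylation downstream that is densest in siControl+TGFb replicate 1. Over all members, the list labelled siPHF13+TGFb replicate 1 has peaks at 7 of the 53 regions. Regions near ZEB1, ZEB2 and PRRX1 are not drawn.

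The wider pathway was read from 58 further EMT genes, of which 56 had windows. For TGFβ, H3K4me3 was higher without overlap at 18 and lower at 1 of the 50 with a peak, beside 44.2% and 2.11% of all windows, and H3K27ac was higher at 15 of 37, beside 51.4%. H3K27me3 was higher at 2 and lower at 1 of 30, beside 4.28% and 7.01%. For depletion, H3K4me3 was lower at 20 of 50, beside 57.7%, and H3K27ac separated the groups at 0 of 37, beside 10.1% lower. H3K27me3 was lower at 7 and higher at 1 of 27, beside 26.2% and 1.11%. The higher counts of H3K4me3 and H3K27ac with TGFβ and the lower counts of H3K4me3 and H3K27me3 with depletion were thus no larger a share than that of all windows. Limma called 0 of them after adjustment in either comparison. Among other EMT-inducing factors, KLF8, a Krüppel-like repressor, carried H3K4me3 over 369 and 823 bp in siControl cells, 1148 and 775 bp in siControl+TGFb and 0 and 518 bp in siPHF13+TGFb. Its siPHF13+TGFb lists were the lower pair against siControl+TGFb, with a difference of −1.60 on the log2 scale, or −0.68 without siPHF13+TGFb replicate 1. Among epithelial regulators, GRHL3, a grainyhead factor, carried H3K4me3 over 1627 and 1992 bp, 2444 and 3136 bp, and 861 and 1928 bp in that order, with differences of 0.57 for TGFβ and −0.98 for depletion, or −0.48 without that replicate.

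Among the targets that EMT factors repress, TGFβ separated the groups for H3K4me3 at 5 of 12, for H3K27ac at 3 of 8 and for H3K27me3 at 1 of 9, shares no larger than those of all windows, both directions together. OCLN, which encodes the tight junction protein occludin, carried H3K27ac over 222 and 813 bp in siControl cells, 3009 and 1841 bp in siControl+TGFb and 0 and 2079 bp in siPHF13+TGFb. The TGFβ difference was 1.97, the largest of the pathway genes for this mark. CDH1, the gene for E-cadherin and a direct target of SNAI and ZEB proteins, carried H3K27me3 over 773 and 1268 bp, 1607 and 1606 bp, and 0 and 1246 bp in that order. It was higher with TGFβ by 0.60, and the difference with depletion was −1.75, both without overlap. Without siPHF13+TGFb replicate 1, which had no peak there, the second difference was −0.32. The microRNA gene MIR101-1 went the other way for H3K27me3, with 1274 and 5891 bp, 945 and 1160 bp, and 1407 and 2773 bp, a difference of −1.26 for TGFβ and 0.81 for depletion, or 1.25 without siPHF13+TGFb replicate 1.

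The other pathway genes with the largest differences without overlap are given by their log2 difference. With TGFβ, H3K4me3 was higher at ST14, the gene for the epithelial protease matriptase, by 0.47, and at TBX3, a T-box factor, by 0.47. MIR141, which shares the peaks of MIR200C, differed by 1.35, and LLGL2, a cell polarity gene, by −0.17. H3K27ac was higher at TBX3 by 1.49, at GRHL1, another grainyhead factor, by 1.47 and at MIR30A by 1.17. H3K27me3 was higher at PRRX2, the paralogue of PRRX1, by 1.22. With depletion, the H3K4me3 difference was −1.35 at MIR141 and −0.96 at ELF3, an epithelial ETS factor, or −1.35 and −0.18 without siPHF13+TGFb replicate 1. The H3K27me3 difference was −2.60 at PRRX2, −2.08 at KLF8 and −1.86 at SNAI3, a relative of SNAI1. Without that replicate it was −2.60 at PRRX2, −1.09 at KLF8 and −1.90 at SNAI3.

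Over the 18 values of a gene, the protein-coding genes closest to each member were found by Euclidean distance on the log2(bp + 200) scale, among up to 20162 genes. ZEB1 was closest to EGLN2, SEC16A and FBXO5, with a distance of 0.504 for the first, where the median over all genes was 6.28. ZEB2 was closest to PTPRU, HLF and BATF3 (0.676 for the first, median 15.73), and PRRX1 to ATP1B2, UGT8 and DCDC2 (0.931, median 10.43). SNAI1 was closest to NUDT11, HIC1 and TGFB2 (1.206, median 5.93), and SNAI2 to PRDM7, ZDBF2 and HOXD13 (1.22, median 11.57). TWIST1 was closest to TNFSF10, DNASE1L3 and ANKLE1 (0.367, median 8.32), and TWIST2 to USP18, HTR1D and ZNF519 (1.912, median 6.27). For MIR200B the nearest were TMEM71, KRT3 and HAMP (0.623, median 11.97), and for MIR200C they were TMPRSS11D, TNF and BTBD16 (1.247, median 9.83). All genes share the 18 lists and their lengths, so part of any likeness is that of the lists.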

How the data were processed

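According to the submitters' processing notes, the authors trimmed reads with Trim Galore 0.4.1, aligned them to hg19 with Bowtie2 2.4.1, removed duplicates with Picard and called peaks in each library with MACS2 2.2.7.1, and deepTools 3.5.0 is also listed. H3K4me3 and H3K27ac were deposited as narrow and H3K27me3 as broad peaks. The deposited columns hold a whole-number score, a fold enrichment over input (a ratio), and p-values and q-values as −log10. The lowest −log10 q in the lists was 1.3 for narrow and 1.0 for broad peaks. A deeper or better enriched library yields more and wider peaks, so covered length measures the library too.

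Covered bp were summed over the union of windows of 5 kb around each TSS of GENCODE release 44 on GRCh37. Groups were compared by non-overlap, by exact permutation, and by limma 3.58.1 on log2(bp + 200) for windows with a mean of at least 100 bp, all groups in 1 fit per mark, with Benjamini-Hochberg adjustment and a threshold of 0.05. The script was tested on simulated data. Percentiles used column 9, the −log10 q. Named were the members, the 3 protein-coding genes nearest to each in pattern, per mark, comparison and direction up to 4 pathway genes with the largest differences among those that did not overlap, and the most covered and all gained or lost distal regions. Members and lists were chosen with earlier results of these data known. Alternatives were windows of 2.5 kb or the 5′ end alone, equal list lengths, −log10 q of at least 3, scaling by total covered length, a pseudocount of 50 bp, distances of 50 kb, presence by 200 bp, a replicate block and leaving out each library. Sequences came from RefSeq (GRCh38.p14) and the GRCh37 genome. The 6 inputs were not analysed here. Python 3.11.15, R 4.3.3 and samtools 1.23.1 were used.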

Additional observations from a re-analysis of the deposited data

How the results depend on the processing

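For TGFβ, H3K4me3 at the members separated the groups at 3 genes, at 1 (ZEB2) with lists of equal length, 5 with the replicate block and 0 with the groups exchanged as the names inside the lists could be read. H3K27ac gave 2, and 1 (ZEB1, higher) with lists of equal length and 0 with the groups exchanged. After scaling by total covered length it gave 3, where SNAI1 and TWIST2 were higher and ZEB1 was lower. H3K27me3 gave 0, and 1 with windows of 2.5 kb, 2 after scaling by total covered length and 1 with the replicate block. For depletion, H3K4me3 gave 3 also with lists of equal length, where SNAI1 took the place of MIR200C, and after scaling, where SNAI2 was higher and TWIST2 overlapped, and 2 with windows of 2.5 kb, which hold no TWIST1 peak. H3K27ac gave 0, and 1 with equal lengths and 2 after scaling. H3K27me3 gave 1, and 3 at the 5′ end alone, 2 with windows of 2.5 kb, 2 with equal lengths, 0 at a −log10 q of at least 3, 4 after scaling (2 of them higher) and 2 with the replicate block. Of the distal regions, 5 were gained with TGFβ, 2 within 50 kb, 0 with equal lengths and 2 with the groups exchanged. With depletion 1 was lost, 0 within 50 kb, 1 with equal lengths, where 1 was also gained, and 0 at the stricter q. Leaving out 1 library at a time, which makes separation easier since 1 list then stands against 2, gave 4 to 8 and 3 to 8 members for H3K4me3 (TGFβ, then depletion), 2 to 4 and 0 to 4 for H3K27ac, 0 to 4 and 2 to 4 for H3K27me3, and 7 to 23 and 2 to 24 distal regions. The highest H3K4me3 counts came without siControl replicate 2 and without siPHF13+TGFb replicate 2. The H3K27me3 members separated for TGFβ were 4 lower without siControl replicate 1 but 3 higher without siControl replicate 2, and SNAI1 and PRRX1 were lower for H3K4me3 without siControl replicate 1. Directions also turned for H3K27me3 under depletion without siPHF13+TGFb replicate 1 (3 genes, 2 of them higher) and for distal regions without the same library (4 regions, 3 of them gained). Over the single members that separated, 11 alternative values lost separation and 3 changed sign, while leaving out a list, the pseudocount, the filter and the block could not undo a separation. The 3 were H3K4me3 for TGFβ at ZEB1 after scaling (−0.12), and at ZEB1 (−0.27) and ZEB2 (−0.0345) with the groups exchanged. The cause of these changes was not tested.

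Deviations of same-numbered libraries from their group means correlated at 0.124 to 0.484 between siControl and siPHF13+TGFb. Between siControl+TGFb and either of the other groups they correlated at −0.346 to 0.046. With 2 lists per group these values cannot show whether the replicate numbers pair libraries, and the numbers were not used as pairs in the main comparisons. Limma with the replicate block called 0 members. Limma called no member under the other alternatives either, except for H3K27ac under depletion without siPHF13+TGFb replicate 2, where it called SNAI1, ZEB1 and TWIST2 together with 15305 windows, all lower, the list left in that group being the one of 6004 peaks, assumed to vary like the other groups. Scaling by total covered length moved the median of the windows tested by limma for TGFβ from 0.13 to −0.10 for H3K4me3 and from 0.55 to −0.13 for H3K27ac, and for depletion from −0.23 to 0.14 and from −1.08 to −0.80. Without read counts, a missing peak cannot be told from a weak one.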
